A study of Caenorhabditis elegans with 10 samples.

Results

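The genes described here encode zona pellucida (ZP) domain proteins, cuticlins and lipocalins of the extracellular matrix on the outer face of the Caenorhabditis elegans epidermis and of its tubular organs. They were chosen by symbol: every gene named cut, cutl or lpr with a number, together with noah-1, noah-2, fbn-1, let-653 and dyf-7, provided that its mean level over the 10 libraries was above 0. This gave 47 of the 46903 genes of the table, namely 6 cut genes, 29 cutl genes, 7 lpr genes and the 5 named genes. Of these, 36 had a mean of at least 1 TPM (transcripts per 1000000) and entered the tests, alongside all other genes at that level (14418 in total).

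ZP domain proteins are secreted or membrane-anchored proteins that assemble into filaments and sheets on apical cell surfaces, and many cuticlins take their name from the insoluble residue of the worm cuticle. Lipocalins are small secreted proteins with a barrel-shaped pocket for lipids and other hydrophobic molecules. In C. elegans several proteins of both kinds belong to the precuticle, a transient matrix that is laid down before each new cuticle, shapes ducts and the body surface and is cleared afterwards, and their genes are transcribed in pulses that follow the molting cycle.

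The study asked how animals respond when the methionine/S-adenosylmethionine (Met/SAM) cycle is perturbed, by comparing 4 point mutants from a chemical mutagenesis screen with the strain they were made in. Every animal carried the transgene wwIs24[Pacdh-1::GFP;unc-119(+)], a reporter for the acyl-CoA dehydrogenase gene acdh-1, and the deletion nhr-10(tm4695), which removes a nuclear hormone receptor, so that the parent is not a wild type. The mutants also carried mthf-1(ww50), in methylenetetrahydrofolate reductase, sams-1(ww51), in S-adenosylmethionine synthetase, metr-1(ww52), in methionine synthase, or mtrr-1(ww56), in methionine synthase reductase, and each gene was represented by 1 allele. Whole animals were synchronized by an 18 h L1 arrest and grown for 48 h on E. coli OP50 with 20 nM vitamin B12, after maintenance at 0.64 nM. The labels give the stage as L4, the methods as late L4 to early young adult, and each of the 5 strains was sequenced in biological duplicate, numbered 1 and 2, from pools of animals.

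TPM values are scaled for transcript length and for the size of the library, so that levels can be compared between genes, but sequencing depth and counting error cannot be recovered from them. The libraries held between 13752 and 14563 genes at 1 TPM or more. In whole animals, fewer cells of a type and less RNA per cell cannot be told apart.

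The clearest difference lay in 6 genes, the lipocalin genes lpr-3, lpr-4, lpr-5 and lpr-6 and the ZP domain genes noah-1 and noah-2. Each was between 1.02 and 4.36 TPM in the parent libraries and between 12.2 and 727 TPM in the mutant libraries. Both libraries of every mutant lay above both parent libraries for each of the 6. The levels were highest in replicate 1 of sams-1(ww51), next in replicate 1 of mtrr-1(ww56), and replicate 1 was above replicate 2 in all 5 strains.

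LPR-3, a lipocalin of the precuticle that is needed for an unbroken excretory duct and a tight cuticle, had the highest mean over the 10 libraries of the lipocalin genes, although lpr-7 was above it in both parent libraries and in replicate 2 of metr-1(ww52). The lpr-3 level was 3.65 and 1.79 TPM in replicates 1 and 2 of the parent, 83.6 and 23.4 in metr-1(ww52), 89.0 and 47.8 in mthf-1(ww50), 494 and 56.9 in mtrr-1(ww56), and 727 and 173 in sams-1(ww51). The lowest mutant library, replicate 2 of metr-1(ww52), was thus still above the higher parent library. Taken against the parent library of the same number, the lpr-3 level was 22.9 and 13.1 times as high in metr-1(ww52), 24.4 and 26.7 times in mthf-1(ww50), 135 and 31.8 times in mtrr-1(ww56), and 199 and 96.6 times in sams-1(ww51). The log2 fold change of log2(TPM + 1) was 3.66 in metr-1(ww52), 4.2 in mthf-1(ww50), 5.55 in mtrr-1(ww56), and 6.63 in sams-1(ww51), each with a standard error (SE) of 1.15, and 5.01 (SE 0.906) for the mean of the 4 mutants.

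The genes lpr-3, lpr-6, lpr-5 and lpr-4 lie next to each other in this order on chromosome X, all on the plus strand. In the WBcel235 annotation they span chrX:11057401-11059793, chrX:11059994-11061871, chrX:11062123-11064539 and chrX:11065126-11066811, with 200, 251 and 586 bp between neighbours. No other neighbouring pair of the 47 genes lay closer than 1478 bp, the distance from cutl-27 to let-653. An exon of lpr-3 overlaps the noncoding gene C09F12.6 on the other strand over 110 bp, and since the strand setting of the counting is not given and the 4 lipocalin genes are related in sequence, reads shared between them could have been split.

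The other lipocalin genes of this cluster showed nearly the same order of libraries as lpr-3. The lpr-4 level was 4.36 and 1.02 TPM in the parent, 56.8 and 13.6 in metr-1(ww52), 64.9 and 30.5 in mthf-1(ww50), 354 and 36.95 in mtrr-1(ww56), and 468 and 110 in sams-1(ww51). The lpr-5 level was 2.88 and 1.22 TPM in the parent, 54.4 and 14.5 in metr-1(ww52), 51.2 and 23.9 in mthf-1(ww50), 255 and 29.8 in mtrr-1(ww56), and 356 and 95.1 in sams-1(ww51). The lpr-6 level was 3.76 and 1.53 TPM in the parent, 40.3 and 12.2 in metr-1(ww52), 41.7 and 20.1 in mthf-1(ww50), 205 and 29.2 in mtrr-1(ww56), and 282 and 68.0 in sams-1(ww51). For all 3 genes the parent libraries did not overlap with the libraries of any mutant. Within a library the ratio of lpr-3 to lpr-4 ranged from 0.837 to 1.75, of lpr-3 to lpr-5 from 1.27 to 2.04 and of lpr-3 to lpr-6 from 0.971 to 2.58, while the lpr-3 level itself ranged 406-fold over the libraries.

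NOAH-1 and NOAH-2 are ZP domain proteins of the embryonic and larval epidermal matrix, related to Drosophila NompA, and are required for the embryo to elongate. The gene noah-1 (chrI:5874416-5878958, minus strand) was at 3.47 and 2.37 TPM in the parent, 69.0 and 16.5 in metr-1(ww52), 56.7 and 27.3 in mthf-1(ww50), 300 and 41.3 in mtrr-1(ww56), and 417 and 118 in sams-1(ww51). The gene noah-2 (chrIV:14091254-14096626, plus strand) was at 3.68 and 2.50 TPM in the parent, 88.1 and 24.8 in metr-1(ww52), 68.3 and 32.9 in mthf-1(ww50), 322 and 45.4 in mtrr-1(ww56), and 447 and 131 in sams-1(ww51). Although the genes lie on different chromosomes, their levels stayed close, with a noah-2 to noah-1 ratio of 1.05 to 1.5 in the 10 libraries. For the mean of the 4 mutants the log2 fold change was 4.31 (SE 0.86) for noah-1 and 4.49 (SE 0.829) for noah-2.

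**Figure D1:**
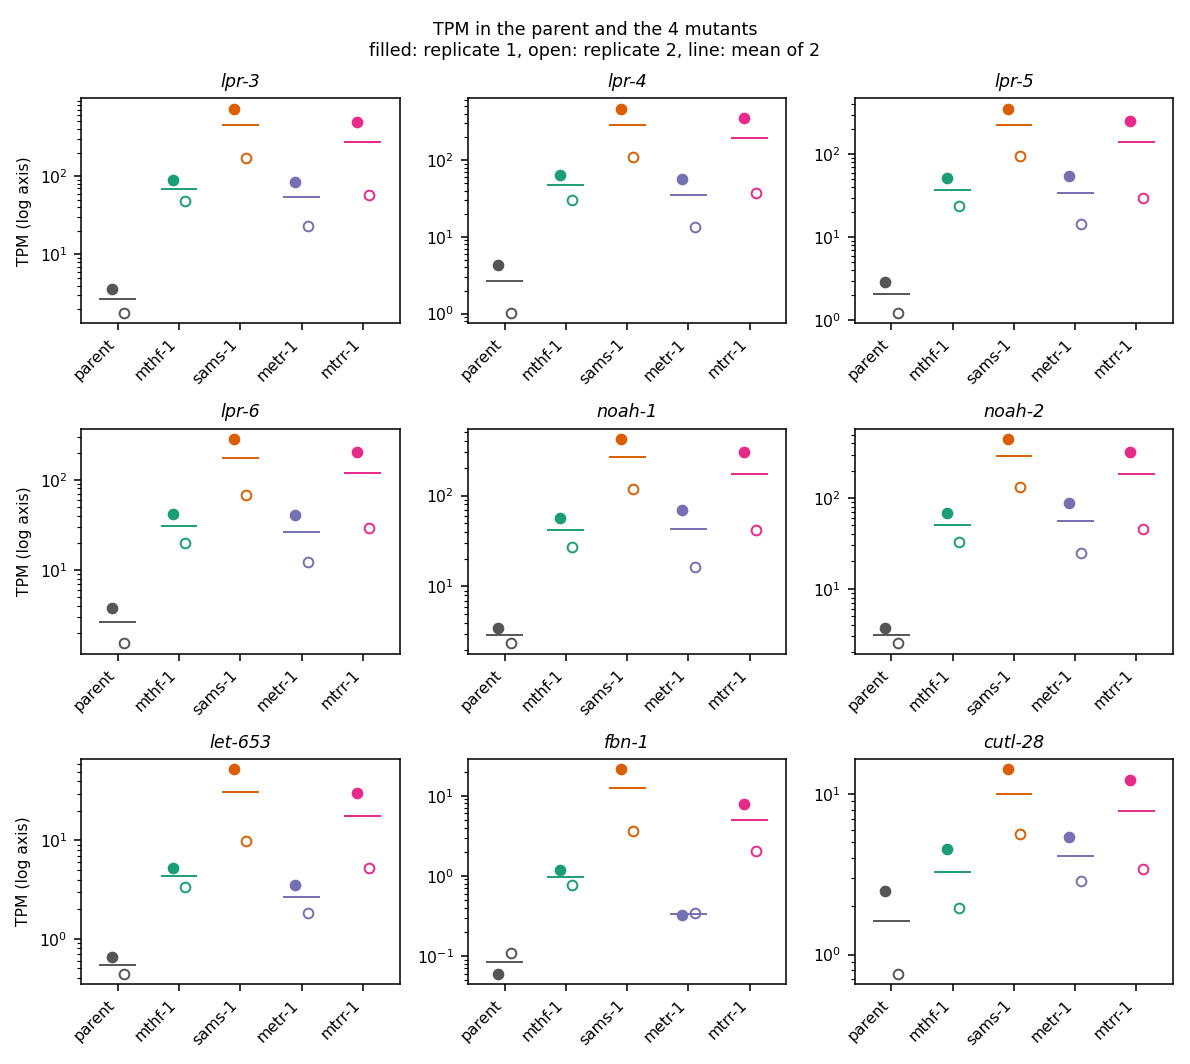
TPM on a log axis of 9 genes in the 5 strains, where filled points are replicate 1, open points replicate 2 and lines the mean of the 2 libraries. All mutant libraries lie above both parent libraries for the lpr, noah, let-653 and fbn-1 panels but not for cutl-28, and replicate 1 of sams-1(ww51) is the highest point in every panel.

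Each mutant was compared with the parent by limma on log2(TPM + 1), and a gene was called when its Benjamini-Hochberg adjusted p over all 14418 genes was under 0.01 and its fold change over 1.5. In the fit with a mean per strain alone, 0 of the 36 genes were called higher in any comparison, against 0.25% of all genes in metr-1(ww52), 0.153% in mthf-1(ww50), 0.111% in mtrr-1(ww56), 0.0624% in sams-1(ww51), 0.215% for the mean of the 4 mutants and 0.0486% in all 4 mutants together. The limma adjusted p for the mean of the 4 mutants in this fit was 0.0548 for lpr-3, 0.0558 for noah-2, 0.0633 for lpr-5 and noah-1, 0.0737 for lpr-4 and 0.0741 for lpr-6. At an unadjusted p under 0.05, the same limma fit placed 16 of the 36 genes higher for the mean of the 4 mutants, where 16.1% of all genes met this, and 1 gene lower, where 3.35% did. By strain, 8 genes were higher at that level in metr-1(ww52), where 9.12% of all genes were, 8 in mthf-1(ww50), where 8.73% were, 16 in mtrr-1(ww56), where 18.8% were, and 18 in sams-1(ww51), where 15.2% were.

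The deviations of equally numbered libraries were correlated in every pair of strains, and with the replicate number as a block the spread left between libraries was smaller for the 6 lpr and noah genes, as in an SE of 0.434 in place of 0.906 for lpr-3. In that limma fit 7 genes rose for the mean of the 4 mutants, namely lpr-3, lpr-4, lpr-5, lpr-6, noah-1, noah-2 and cutl-28, against 2.81% of all genes called higher. The blocked adjusted p was 0.00292 for lpr-4, 0.00301 for lpr-3, lpr-5, lpr-6 and noah-2, 0.00382 for noah-1 and 0.00775 for cutl-28. The same 7 genes rose in sams-1(ww51), against 2.46% of all genes, and in mtrr-1(ww56), against 3.11%. In metr-1(ww52) and mthf-1(ww50) 0 of the 36 were called with the block, against 0.409% and 0.243% of all genes, and the blocked adjusted p of the 6 lpr and noah genes lay between 0.0203 and 0.0336 there. For the mean of the 4 mutants 0 of the 36 genes were called lower in either fit, where 0.0277% of all genes were without the block and 0.381% with it. With the block 0 were called lower in any single mutant, against 0.111% of all genes in metr-1(ww52), 0.0624% in mthf-1(ww50), 1.06% in mtrr-1(ww56) and 0.229% in sams-1(ww51).

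The blocked calls depended on which libraries entered. For the mean of the 4 mutants, 0 of the 36 genes were called when either library of the parent, of mthf-1(ww50) or of metr-1(ww52) was left out, 5 without either library of sams-1(ww51) and 7 without either library of mtrr-1(ww56). Over all genes, the number called for this mean fell from 460 to between 12 and 21 when a library of the parent, of mthf-1(ww50) or of metr-1(ww52) was left out. The counts of the 36 genes in sams-1(ww51) and in mtrr-1(ww56) were also 0 without any of those same libraries. In sams-1(ww51) the count was 0 without either of its own libraries too, and in mtrr-1(ww56) it was 0 without its own replicate 1 and 3 without either library of sams-1(ww51). Replicate 1 of sams-1(ww51) and replicate 1 of mtrr-1(ww56) were also left out together, an alternative chosen after seeing the data. These libraries were removed for their levels of these same genes. The 1 library left in each of those mutants was assumed to vary like the other strains. The calls of that fit therefore carry no weight here. No gene was called in all 4 mutants together with the block, where 0.16% of all genes were called higher in all 4.

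Counting libraries in place of testing, 16 of the 36 genes had all 8 mutant libraries above both parent libraries, against 12.9% of all genes. These were lpr-1 to lpr-6, noah-1, noah-2, fbn-1, let-653, cut-5, cut-6, cutl-6, cutl-9, cutl-16 and cutl-18. For 1 gene all 8 mutant libraries lay below both parent libraries, against 3.52% of all genes; this was cutl-26. The median log2 fold change for the mean of the 4 mutants was 0.63 over the 36 genes and 0.07 over all genes tested. By family it was 3.93 for the 7 lpr genes, 2.53 for the 5 named genes, 0.78 for the 4 cut genes tested and 0.09 for the 20 cutl genes tested.

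**Figure D2:**
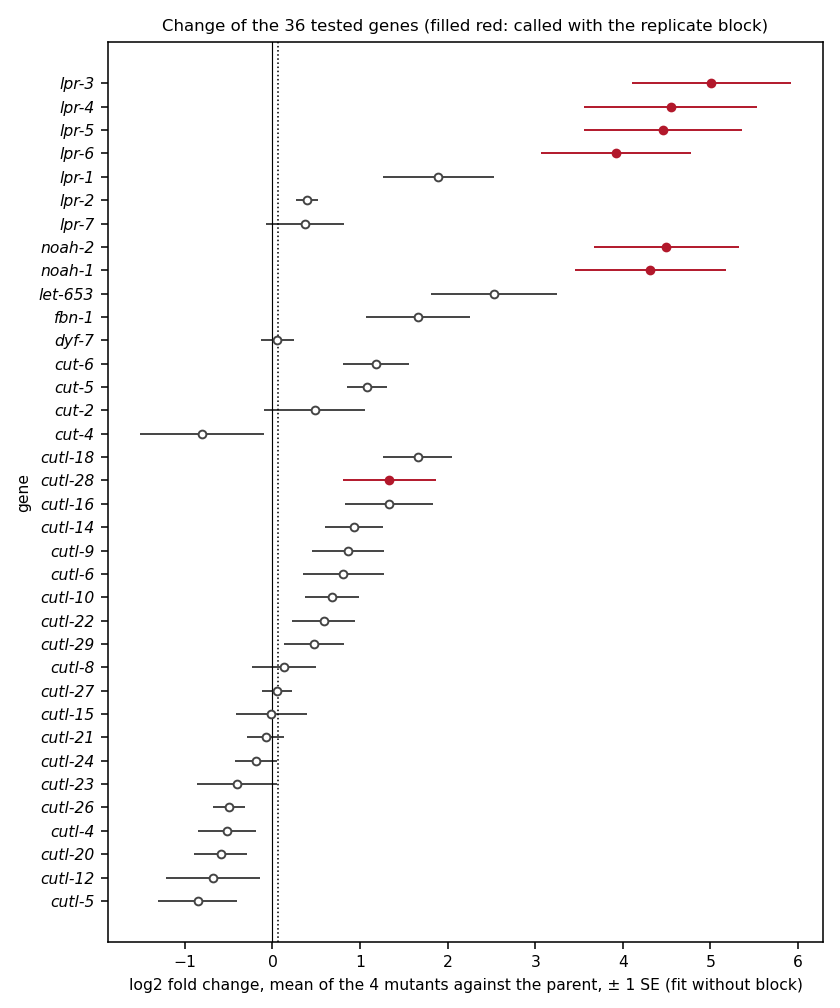
Log2 fold change of log2(TPM + 1) for the mean of the 4 mutants against the parent (x axis) of the 36 genes tested (y axis), with bars of ± 1 SE from the fit without the block and filled red points for the 7 genes called in the fit with it. The dotted line is the median of all genes, 0.07, the cutl genes spread to both sides of it, from -0.85 to 1.66, and 6 of the 7 red points lie at 3.93 or above.

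The genes let-653 and fbn-1 were also low in the parent. LET-653 is a mucin-like ZP domain protein that lines and shapes the lumen of the excretory duct and the vulva, and its gene lies at chrIV:11885613-11891082. The let-653 level was 0.65 and 0.44 TPM in the parent, 3.54 and 1.82 in metr-1(ww52), 5.30 and 3.35 in mthf-1(ww50), 30.1 and 5.28 in mtrr-1(ww56), and 52.8 and 9.79 in sams-1(ww51). All mutant libraries were thus above the parent libraries, and the log2 fold change for the mean of the 4 mutants was 2.53 (SE 0.72, limma adjusted p = 0.128, and 0.0226 with the block). The gene cutl-27, whose end lies upstream of let-653 on the same strand, had a mean of 1.00 TPM and a log2 fold change of 0.05.

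FBN-1, a fibrillin-related ZP domain protein that helps the epidermis withstand mechanical strain in the embryo, had the lowest parent level of the named genes. The fbn-1 level was 0.06 and 0.11 TPM in the parent, 0.32 and 0.34 in metr-1(ww52), 1.19 and 0.77 in mthf-1(ww50), 7.92 and 2.06 in mtrr-1(ww56), and 21.2 and 3.64 in sams-1(ww51). The sams-1(ww51) and mtrr-1(ww56) libraries stood above those of the other mutants, and metr-1(ww52) was the mutant closest to the parent. On the log2(TPM + 1) scale, which understates changes at such low levels, the difference was 3.23 (SE 0.747) in sams-1(ww51) and 0.29 (SE 0.747) in metr-1(ww52), with limma adjusted p of 0.107 and 0.91.

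DYF-7, a ZP domain protein that anchors the dendrite tips of sensory neurons in the embryo, showed no such difference. Its gene was at 5.42 and 5.31 TPM in the parent, 6.45 and 3.93 in metr-1(ww52), 7.49 and 5.26 in mthf-1(ww50), 4.43 and 5.29 in mtrr-1(ww56), and 6.30 and 6.44 in sams-1(ww51). The log2 fold change for the mean of the 4 mutants was 0.05 (SE 0.187, limma adjusted p = 0.895).

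The other 3 lipocalin genes differed from the cluster on chromosome X. LPR-1 acts from outside the cells to keep the excretory duct and pore connected, and the lpr-1 level was 2.16 and 1.14 TPM in the parent, 6.08 and 3.14 in metr-1(ww52), 5.84 and 3.64 in mthf-1(ww50), 28.3 and 5.33 in mtrr-1(ww56), and 36.03 and 10.7 in sams-1(ww51). All mutant libraries were above the parent, with a log2 fold change of 1.89 (SE 0.634, limma adjusted p = 0.172, and 0.022 with the block) for the mean of the 4 mutants. The lpr-2 level varied least of the lipocalin genes, from 1.2 to 2.24 TPM over the 10 libraries. The lpr-7 gene, which shares 40 bp of exon with rund-1 on the other strand, was at 29.1 and 10.1 TPM in the parent, 35.0 and 29.0 in metr-1(ww52), 34.5 and 21.4 in mthf-1(ww50), 13.1 and 28.2 in mtrr-1(ww56), and 11.8 and 21.1 in sams-1(ww51). Its parent libraries thus spanned most of the range of the mutants, and replicate 1 was the lower library in mtrr-1(ww56) and sams-1(ww51) but the higher one in the other 3 strains.

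**Figure D3:**
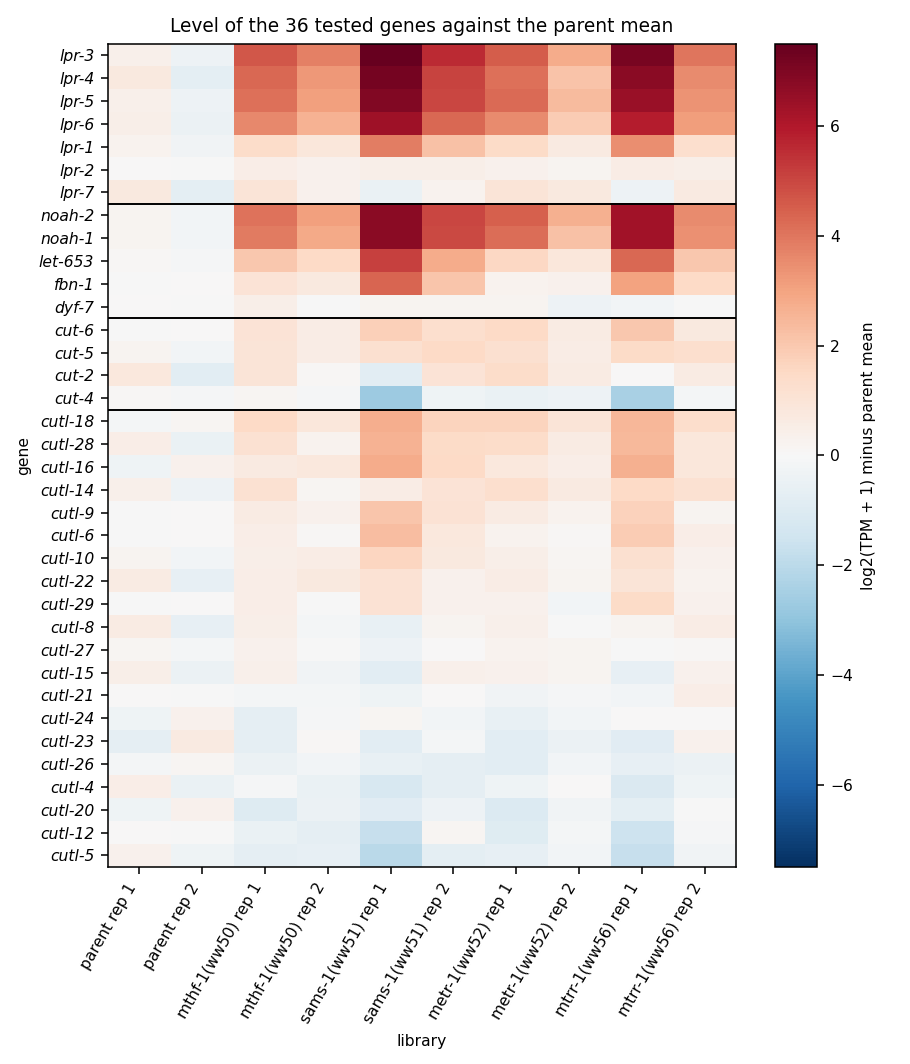
Log2(TPM + 1) of the 36 genes tested (rows, in families separated by lines) in each of the 10 libraries (columns), minus the mean of the 2 parent libraries, with red above and blue below it. The lpr-3 to lpr-6 and noah rows are red in all 8 mutant columns and darkest in replicate 1 of mtrr-1(ww56) and sams-1(ww51), whereas cut-4, cutl-5 and cutl-12 are bluest in those same columns.

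The cut-2 gene had the highest mean over the 10 libraries of all 47 genes, although in sams-1(ww51) the strain mean of lpr-3, 450 TPM, was above that of cut-2, 323 TPM. CUT-2 is a component of the insoluble cuticlin residue and, unlike most of the proteins described here, is built from short repeats and has no ZP domain. The cut-2 level was 427 and 145 TPM in the parent, 648 and 382 in metr-1(ww52), 478 and 264 in mthf-1(ww50), 250 and 384 in mtrr-1(ww56), and 143 and 503 in sams-1(ww51). The parent libraries lay among the mutant libraries, and the log2 fold change for the mean of the 4 mutants was 0.48 (SE 0.575, limma adjusted p = 0.68).

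The cut-4 gene split by replicate in 2 of the mutants. It was at 47.1 and 40.6 TPM in the parent, 30.5 and 33.3 in metr-1(ww52), 48.8 and 41.6 in mthf-1(ww50), 7.22 and 39.9 in mtrr-1(ww56), and 5.85 and 34.7 in sams-1(ww51). Against the parent library of the same number, replicate 1 was at 0.124 times the level in sams-1(ww51) and 0.153 times in mtrr-1(ww56), whereas replicate 2 was at 0.855 and 0.982 times. The 2 libraries lowest in cut-4 were therefore those highest in the lpr and noah genes, and the log2 difference for the mean of the 4 mutants, -0.80 (SE 0.707), was close to its error (limma adjusted p = 0.577).

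CUT-6, a ZP domain cuticlin needed for the shape and alae of dauer larvae, and CUT-5, which takes part in forming larval alae, were made at low levels. The cut-6 gene was at 0.61 and 0.64 TPM in the parent, 3.64 and 1.51 in metr-1(ww52), 2.36 and 1.39 in mthf-1(ww50), 5.49 and 1.67 in mtrr-1(ww56), and 4.6 and 2.83 in sams-1(ww51). For cut-5 the parent libraries were at 1.16 and 0.61 TPM and the mutant libraries between 1.72 and 4.27 TPM. For both genes all mutant libraries lay above the parent, with log2 fold changes for the mean of the 4 mutants of 1.19 (SE 0.378) for cut-6 and 1.08 (SE 0.228) for cut-5, and limma adjusted p of 0.16 and 0.0688, or 0.0297 and 0.0198 with the block.

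The cutl genes, a family of cuticlin-like ZP domain genes most of which have no described function, differed less and in both directions. At an unadjusted p under 0.05 in the limma fit without the block, 4 of the 20 tested were higher for the mean of the 4 mutants (cutl-14, cutl-16, cutl-18 and cutl-28) and 1 was lower (cutl-26), where 16.1% of all genes were higher and 3.35% lower, so that the cutl counts lay near the background. In sams-1(ww51) 6 were higher and 2 lower (cutl-5 and cutl-26), where 15.2% and 2.93% of all genes met the same rule. In mthf-1(ww50) 0 cutl genes met it in either direction, where 8.73% of all genes were higher and 3.2% lower.

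The cutl-28 level was 2.50 and 0.76 TPM in the parent, 5.36 and 2.87 in metr-1(ww52), 4.53 and 1.96 in mthf-1(ww50), 12.1 and 3.43 in mtrr-1(ww56), and 14.2 and 5.65 in sams-1(ww51). Replicate 2 of mthf-1(ww50) was below replicate 1 of the parent, but within each replicate number every mutant library was above the parent library, by 1.81 to 5.68 times in replicate 1 and 2.58 to 7.43 times in replicate 2. Its log2 fold change for the mean of the 4 mutants was 1.34, with an SE of 0.533 without the block and 0.171 with it, and it ranged from 0.84 to 1.83 when libraries were left out in turn. Under median-ratio scaling with the block cutl-28 was no longer called for the mean of the 4 mutants, whereas the lpr-3 to lpr-6 and noah genes were.

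On the log2(TPM + 1) scale the largest change of a cutl gene for the mean of the 4 mutants was that of cutl-18, although the TPM ratio of cutl-16, which was at 0.22 TPM in replicate 1 of the parent, was larger in replicate 1 of sams-1(ww51), 42.7 against 9.89. The cutl-18 gene was at 2.20 and 2.83 TPM in the parent, 10.2 and 5.93 in metr-1(ww52), 8.90 and 5.29 in mthf-1(ww50), 19.1 and 7.75 in mtrr-1(ww56), and 21.8 and 10.3 in sams-1(ww51). The mutant libraries did not overlap with the parent, and the log2 fold change for the mean of the 4 mutants was 1.66 (SE 0.399, limma adjusted p = 0.0938, and 0.0151 with the block). At the other end, cutl-5 was at 4.67 and 2.67 TPM in the parent, 1.92 and 2.90 in metr-1(ww52), 1.90 and 2.00 in mthf-1(ww50), 0.40 and 2.86 in mtrr-1(ww56), and 0.14 and 1.73 in sams-1(ww51). Its mutant libraries overlapped with the parent only in replicate 2 of metr-1(ww52) and mtrr-1(ww56), and the log2 difference was -0.85 (SE 0.45, limma adjusted p = 0.354). The most abundant cutl gene, cutl-15, was at 25.9 and 13.9 TPM in the parent and between 10.4 and 25.6 TPM in the mutants, and its log2 difference was -0.02 (SE 0.404).

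**Figure D4:**
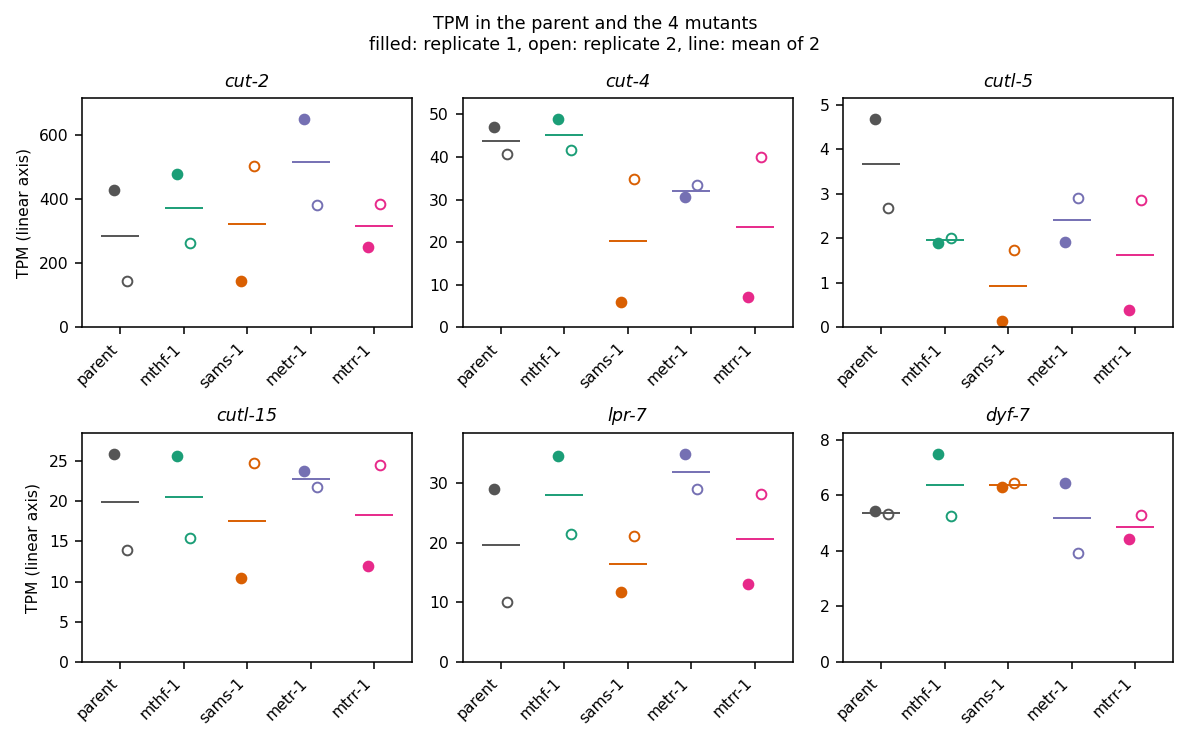
TPM on a linear axis from 0 of 6 genes in the 5 strains, where filled points are replicate 1, open points replicate 2 and lines the mean of the 2 libraries. In cut-2, cut-4, cutl-5, cutl-15 and lpr-7 the replicate 1 libraries of mtrr-1(ww56) and sams-1(ww51) are the lower of their pairs, and in dyf-7 the libraries lie between 3.93 and 7.49 TPM.

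The 11 genes below a mean of 1 TPM were cut-1, cut-3, cutl-1, cutl-2, cutl-3, cutl-7, cutl-11, cutl-13, cutl-17, cutl-19 and cutl-25. Their values lay between 0 and 2.22 TPM in single libraries, and 5 of them were listed at 0 in at least 1 library. They entered no test. Of the 36 genes tested, 24 had a mean under 10 TPM, and 5 had a mean above 100 TPM, namely cut-2, lpr-3, noah-2, lpr-4 and noah-1.

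The total level of the 47 genes differed between strains in composition as well as in size. Their summed level was 621 and 289 TPM in the parent, 1219 and 644 in metr-1(ww52), 1051 and 599 in mthf-1(ww50), 2400 and 818 in mtrr-1(ww56), and 3098 and 1392 in sams-1(ww51). In the parent cut-2 made up 68.8% and 50.2% of the sum and the 6 lpr and noah genes 3.51% and 3.61%. In sams-1(ww51) those 6 genes made up 87.1% and 49.9%, and in mtrr-1(ww56) 80.5% and 29.3%, while their share was 35.4% and 30.4% in mthf-1(ww50) and 32.2% and 16.3% in metr-1(ww52).

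**Figure D5:**
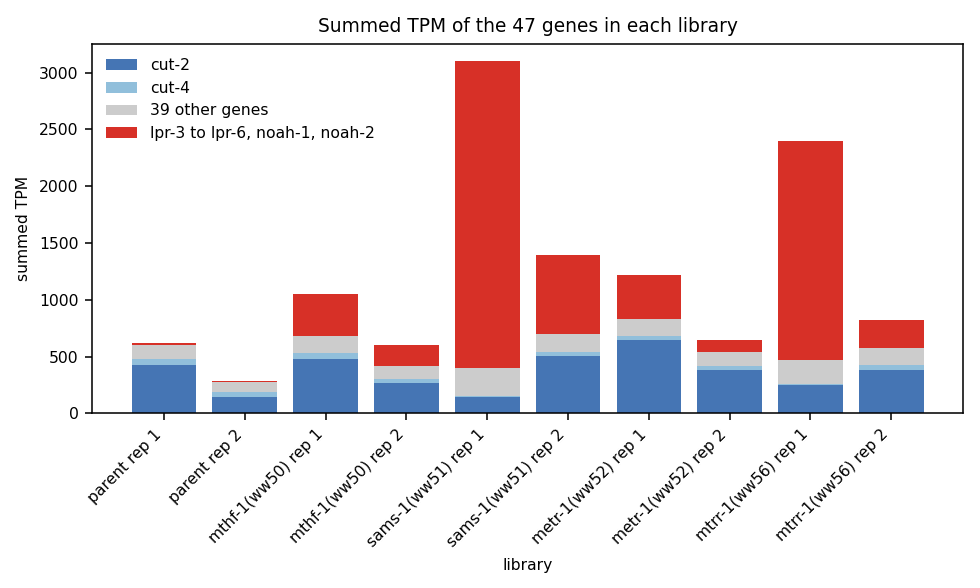
Summed TPM of the 47 genes in each of the 10 libraries (bars, linear axis from 0), split into cut-2, cut-4, the 6 genes lpr-3 to lpr-6, noah-1 and noah-2, and the 39 other genes. The red segment of those 6 genes is 21.8 and 10.4 TPM in the parent and 2697 TPM in replicate 1 of sams-1(ww51), where it is 87.1% of the bar.

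The strains were also set against one another. For the 6 lpr and noah genes both libraries of sams-1(ww51) were above all libraries of metr-1(ww52) and mthf-1(ww50), but replicate 1 of mtrr-1(ww56) was above replicate 2 of sams-1(ww51), and replicate 2 of mtrr-1(ww56) fell between the libraries of mthf-1(ww50). Against the mean of the other 3 mutants, the log2 difference of these genes in sams-1(ww51) lay between 1.87 and 2.16, with limma adjusted p between 0.634 and 0.653, or 0.109 and 0.138 with the block. In this comparison 0 of the 36 genes were called in either fit, and 0.0% of all genes were. At an unadjusted p under 0.05 without the block 2 genes, fbn-1 and let-653, were higher in sams-1(ww51), where 4.95% of all genes were, and with the block 14 were, where 9.83% of all genes were.

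The replicate number moved with these genes too. Replicate 1 was above replicate 2 in all 5 strains for 10 of the 36 genes, against 11.4% of all genes, namely lpr-1 to lpr-6, noah-1, noah-2, let-653 and cutl-28, and it was below in all 5 strains for 2 genes, against 18.6%. The log2 difference between replicate 1 and replicate 2 over the strains lay between 1.56 and 1.95 for the 6 lpr and noah genes. It was called for 0 of the 36 genes, where 0.139% of all genes were called higher and 0.867% lower in replicate 1. The highest library of a gene was replicate 1 of sams-1(ww51) or of mtrr-1(ww56) for 20 of the 36 genes, against 30.3% of all genes, and the lowest library was 1 of these for 9 genes, against 33.3%.

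Markers of stage also differed between the 10 libraries, though not all in the same order. The summed level of the adult collagen genes col-19, col-7 and col-62 was 429 and 1842 TPM in the parent, 43.7 and 588 in metr-1(ww52), 122 and 1203 in mthf-1(ww50), 13.9 and 1037 in mtrr-1(ww56), and 1.39 and 234 in sams-1(ww51). It was thus lowest in the 2 libraries highest in the lpr and noah genes and higher in replicate 2 of every strain. The 6 yolk protein genes vit-1 to vit-6 summed to 147 to 1140 TPM in replicate 1 and 1548 to 4121 TPM in replicate 2 of the 5 strains. In replicate 1 the yolk sum was 1140 TPM in the parent, 1099 in sams-1(ww51), 216 in mthf-1(ww50), and 147 in metr-1(ww52) and mtrr-1(ww56). It thus did not follow the order of the lpr and noah genes. The sum of 10 oocyte and eggshell genes was 66.9 to 536 TPM in replicate 1 and 310 to 1282 TPM in replicate 2. It was lowest in replicate 1 of mtrr-1(ww56), at 66.9 TPM, and of sams-1(ww51), at 141 TPM. All 19 genes were lower in replicate 1 in every strain. The part of stage in the differences between strains was not tested.

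The sum of the epidermal markers was highest in the same libraries as the lpr and noah genes, but not every marker was. The summed level of 5 epidermal genes (dpy-7, elt-3, lin-26, che-14 and bli-1) was 63.6 and 77.4 TPM in the parent and 175 to 1095 TPM in the mutants. It was 1095 TPM in replicate 1 of sams-1(ww51) and 1092 TPM in replicate 1 of mtrr-1(ww56). In the limma fit with the block 3 of the 5, bli-1, che-14 and dpy-7, rose for the mean of the 4 mutants, against 2.81% of all genes. The collagen gene bli-1 made up 716 TPM of the sum in replicate 1 of sams-1(ww51). The sum of 4 intestinal genes was 3825 and 4464 TPM in the parent and 2284 to 3475 TPM in the mutants. Of the parent sums asp-1 alone made up 3756 and 4402 TPM. Only 1 of the 4 genes, asp-1, had all 8 mutant libraries below both parent libraries. The log2 fold change for the mean of the 4 mutants was -0.632 for asp-1, 0.366 for elt-2, 0.088 for ges-1 and -0.095 for elt-7. Over the 10 libraries 4 body muscle genes summed to 2329 to 2964 TPM. The part of the tissue markers in the differences of the lpr and noah genes was not tested. Sperm genes of the msp family summed to 14358 and 17085 TPM in the parent and were lowest in replicate 1 of mtrr-1(ww56), at 5463 TPM.

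A list of 15 genes whose products act beside these proteins on the apical matrix and in molting was followed in the same fits. For the mean of the 4 mutants 0 of them were called without the block and 10 were higher at an unadjusted p under 0.05, where 16.1% of all genes were. With the block 7 of the 15 rose, against 2.81% of all genes, namely sym-1 and let-4, which encode leucine-rich repeat proteins of the matrix, mlt-11, a Kunitz-type protease inhibitor, nas-37, an astacin protease that opens the old cuticle, che-14 and ptr-4, which encode membrane proteins related to Dispatched and Patched, and the hedgehog-related qua-1. Their median log2 fold change was 1.45 over the 15 genes. The sym-1 level was 2.37 and 1.77 TPM in the parent, 30.5 and 10.3 in metr-1(ww52), 39.8 and 20.6 in mthf-1(ww50), 230 and 24.99 in mtrr-1(ww56), and 361 and 75.3 in sams-1(ww51), the same order of libraries within each strain as for lpr-3. Not all partners behaved so: dex-1, which acts with dyf-7 in anchoring dendrites, was at 14.4 and 11.96 TPM in the parent and 6.24 to 14.4 TPM in the mutants. The mup-4 level was 135 and 76.65 TPM in the parent, 16.5 and 96.7 in mtrr-1(ww56), and 8.82 and 66.3 in sams-1(ww51). For bli-5 the values were 24.3 and 11.8 TPM, 8.37 and 17.45, and 6.08 and 16.1. The limma adjusted p without the block for the mean of the 4 mutants was 0.558 for mup-4 and 0.514 for bli-5.

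Of 11 transcription factors and clock genes of the epidermis and the molting cycle, 0 were called without the block, 6 were higher at an unadjusted p under 0.05, where 16.1% of all genes were, and 3 rose with the block (blmp-1, lin-42 and myrf-1), against 2.81% of all genes, with a median log2 fold change of 0.60. MYRF-1, a membrane-tethered transcription factor that drives molting, had a gene level of 13.8 and 9.91 TPM in the parent and 25.4 to 109 TPM in the mutants. The level of nhr-23, a nuclear receptor that activates matrix genes in each molt, was 24.5 and 25.4 TPM in the parent and 25.3 to 54.9 TPM in the mutants, with a log2 fold change of 0.35 (SE 0.229, limma adjusted p = 0.452).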

How the data were processed

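Whole-animal RNA of 5 strains was sequenced in biological duplicate by the authors (paired-end reads), mapped with Bowtie2 and quantified with RSEM, per the submitters' notes and the study's methods, on WormBase release WS271. The deposited table holds TPM per gene with 2 decimals, which the authors scaled so that each library sums to 1000000. Coordinates and overlaps come from the WBcel235 annotation, which was not compared with WS271 base by base; symbols were matched by gene ID. No sequences are shown, as none were in the sources used here.

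TPM was transformed to log2(TPM + 1), genes with a mean under 1 TPM were left out, and limma 3.58.1 in R 4.3.3 was fitted to all 10 libraries with a mean per strain and a trend of variance on level, and p-values were adjusted by Benjamini-Hochberg over 14418 genes. A gene was called at an adjusted p under 0.01 and a fold change over 1.5. A second fit added the replicate number as a block. The labels do not say what equal numbers share; the replicate differences of any pair of strains correlated at 0.166 to 0.736 across genes (10 pairs, all above 0.1), so the blocked values stand beside the others where they change a call. The p-values rest on the spread between the 2 libraries of a strain, pooled over all strains for each gene and drawn toward the trend. With the block, the replicate difference shared by the strains is taken out of that spread. Depth is unknown from TPM. Data were also simulated with independent noise in each library, no replicate effect and the same shift in all 4 mutants for 200 changed genes of 14418. In the fit without the block 116 of these were called for the mean of the 4 mutants and 0 of the unchanged genes were. As the simulated libraries shared no deviations by replicate number, this says nothing on the blocked calls. The real libraries do share them, so these numbers need not hold for the real data without the block either.

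Genes named by rule were the 5 named genes and every gene called in either fit. The rule also took the most abundant gene of each family and those with the largest and smallest log2 fold change. They are given with a value in every library, except that cutl-15 is given by its range in the mutants. The genes lpr-1, lpr-2, cut-5, sym-1 and the others outside this rule were chosen after their values were seen. The members and lists were chosen with earlier results of these data known. The alternatives were another pseudocount (0.1), no filter and a filter at 5 TPM, median-ratio and quantile scaling, no trend, an adjusted p of 0.05, a fit of each mutant beside the parent only, and each library left out.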

Additional observations from a re-analysis of the deposited data

Results flagged for a closer look

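The dyf-7 gene lay above both parent libraries in both libraries of sams-1(ww51) (6.30 and 6.44 TPM against 5.42 and 5.31 TPM) and below both in both libraries of mtrr-1(ww56) (4.43 and 5.29 TPM). The log2 fold changes of the 2 mutants were 0.21 and -0.12, a difference of 0.33. The difference was not tested, and each change was smaller than its SE of 0.236.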

How the results depend on the processing

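Without the block, 0 of the 36 genes were called under every alternative run. The changes of the 17 named genes kept their side of the cutoffs in 296 of the recomputed values; the other 7 were the genes that passed the cutoffs with the replicate block. Leaving out 1 library at a time, the log2 fold change for the mean of the 4 mutants ranged from 4.62 to 5.40 for lpr-3, from 3.84 to 5.25 for lpr-4, from 4.06 to 4.86 for lpr-5, from 3.47 to 4.38 for lpr-6, from 3.96 to 4.67 for noah-1, from 4.14 to 4.84 for noah-2 and from 0.84 to 1.83 for cutl-28, and changed sign for cut-2 (-0.29 to 1.26), lpr-7 (-0.35 to 1.1), cutl-15 (-0.44 to 0.41) and dyf-7 (-0.02 to 0.13), none of which was called. Of the 17 named genes, the filter at 5 TPM removed cut-6, cutl-5 and fbn-1. It also removed others of the 36 genes, such as cut-5 and lpr-2. Quantile normalization moved the median of all genes in mthf-1(ww50) from 0.12 to 0.00.

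With the replicate block, 7 of the 36 genes were called in sams-1(ww51), 7 in mtrr-1(ww56) and 7 for the mean of the 4 mutants. Of all 14418 genes 387, 602 and 460 were called there. The pairing of equal numbers rests on the data alone. Adding a pseudocount of 0.1 to the block gave 10, 9 and 9, against 508, 774 and 563 of all genes. Median-ratio scaling with the block gave 7, 7 and 6, against 314, 567 and 349 of all genes. At an adjusted p of 0.05 the blocked counts were 7 in metr-1(ww52), 7 in mthf-1(ww50), 14 in mtrr-1(ww56), 15 in sams-1(ww51) and 13 for the mean. Of all genes 547 were called in metr-1(ww52), 475 in mthf-1(ww50), 2237 in mtrr-1(ww56), 1436 in sams-1(ww51) and 1238 for the mean. The gene cutl-20 was called lower in each of these comparisons but mtrr-1(ww56). The fit without replicate 1 of sams-1(ww51) and of mtrr-1(ww56), both high libraries, is listed for completeness only. Those libraries were removed for their levels of these same genes, so its counts carry no weight. Genes outside the 36 were called there too, in every mutant and for the mean. Without both high libraries the blocked counts were 4, 4, 2, 8, 11 and 2 in the same order. Leaving out 1 library at a time with the block gave 0 to 1 genes in metr-1(ww52), 0 to 1 in mthf-1(ww50), 0 to 6 in mtrr-1(ww56) (3 without either library of sams-1(ww51)), 0 to 8 in sams-1(ww51), 0 to 7 for the mean and 0 to 1 in all 4 mutants. Each of these fits had 1 strain with a single library. In sams-1(ww51), in mtrr-1(ww56) and for the mean, counts above 0 came only from fits that called many more genes over the whole table. The ranges alone therefore do not set the 36 genes apart from the others. All alternatives that combine the block with another choice were added after seeing the data. The cause of these shifts was not tested. TPM keeps no depth, so the counting error of low genes such as fbn-1 is unknown.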
